A study of Mus musculus with 9 samples.

Results

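HuR pull-down was compared with control IgG pull-down exon by exon in mouse liver, to describe which exons of a gene differed from the rest of that gene. The members were the distinct exons of the deposited RPKM table (reads scaled by exon length and library size) that were above 0 in at least 3 of the 6 pull-down libraries. They numbered 40378 of 210966 listed exons and belonged to 13803 genes. A further 95704 exons were above 0 in 1 or 2 of the 6 libraries, and 74884 were at 0 in all 6. The members were long exons, with a median of 562 b against 189 b for all listed exons. By place in the gene, 5554 were first exons, 14337 internal exons, 16333 last exons and 4154 exons of genes with a single exon.

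All libraries came from whole healthy liver of C57BL/6 WT mice at 8 weeks of age. There were 3 HuR and 3 IgG libraries, and lysate RNA (Input) was at hand only as the authors' mean of 3 libraries. Per the labels' protocols, the RNA immunoprecipitation (RIP) was native and the lysate of a single liver went into each pull-down. The labels do not tie particular livers to particular pairs of pull-downs, and p-values measure only the spread between these libraries.

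HuR, encoded by Elavl1, is a ubiquitous RNA-binding protein of the ELAV family that recognises U-rich and AU-rich stretches. It is known for binding 3' UTRs, where it stabilises mRNAs and affects their translation, and also for binding introns of pre-mRNA in the nucleus. In most protein-coding genes the last exon holds the stop codon and nearly all of the 3' UTR, while the first exon holds the 5' UTR and internal exons are coding. The level of the last exon against the rest of the gene is therefore a coarse readout of where along an mRNA the recovered reads lay.

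The 30-base window with the most U was taken from the last exon of named genes, because HuR is known to bind U-rich RNA. Capitals mark U, sequences run 5′ to 3′, and they come from GENCODE M21 transcripts (GRCm38, also called mm10). Each window is the most U-rich stretch of its exon and no measured binding site. The first 8 are from last exons that were higher against the rest of their gene in all 3 HuR libraries than in any IgG library, and none holds a coding base.
Alb (chr5:90476540-90476569, plus strand): aUUUcUUUaaacaUUUgacUUcUUgUcUcU
Gc (chr5:89417574-89417603, minus strand): UaaUUccaUUUUUcUUagcUacaaUgUUUU
Gjb2 (chr14:57099557-57099586, minus strand): UacUUcaagUgcUgUgUacUUUUUUUUUUU
Sdhd (chr9:50596941-50596970, minus strand): UUacaUggUUaUUUUcagaaUUUaUUUgUU
Cps1 (chr1:67230452-67230481, plus strand): UUUaUUUUggUUUccUUUgUUcUUagUagU
Cyp3a11 (chr5:145854771-145854800, minus strand): UUUUcUcUgcUaaUUccUUUUgagaUcUUU
Mcl1 (chr3:95661741-95661770, plus strand): UUaaUUaUccaaUcUUUUUUUUUUgUaUUU
Cnbp (chr6:87843986-87844015, minus strand): UUUUUcUgaUUgaUggUUgUaUUaUUUUcU
The next 3 are shown for contrast: the difference was small in Apob and below 0 in Phb2, and the last block of Rps2 held few reads.
Apob (chr12:8015633-8015662, plus strand): UUUaaaUgUccUUUUUUcUcaaaaccUUgU
Phb2 (chr6:124716737-124716766, plus strand): UgUgaUggacUUUUcUgUaUcUgcccUcUU
Rps2 (chr17:24721866-24721895, plus strand): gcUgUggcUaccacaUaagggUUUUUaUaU
The window of Phb2 lies in a 3' UTR, that of Apob in coding sequence, and 29 of the 30 bases of the Rps2 window are coding. The windows held 16 U in Alb and Gc, 18 in Gjb2, 17 in Sdhd and Cyp3a11, 19 in Cps1 and Cnbp and 20 in Mcl1, against 15 in Apob, 14 in Phb2 and 11 in Rps2. Such windows are common. Over all tested last exons of 500 b to under 3000 b, the richest window held a median of 18 U, with 19 U in those higher with HuR at an unadjusted p under 0.05 and 18 U in those with a difference of 0 or below. In last exons under 500 b the median was 14 U in all 3 of these sets.

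The library sizes behind the RPKM were 26.3 to 26.9 M reads for HuR and 15.9 to 28.8 M for IgG, with 27.9% to 60.5% of reads in listed exons. Of the members, 29515 to 33007 were above 0 in each HuR library and 32126, 26408 and 16074 in IgG 1, 2 and 3. Reads are not independent molecules, so depth covers counting error only. The column names mark libraries 1 and 2 of each group with M and library 3 with F, which the labels do not explain. Xist, transcribed from the inactive X chromosome, was at 10.2 RPKM in HuR 2 and at 0.463 or below in the other pull-downs. The sum of 4 Y-linked genes was 3.52 RPKM in HuR 3 and 0.041 in HuR 2. If the letters stood for the sexes, HuR 2 and HuR 3 would go against them. Both belong to the HuR group, and main results are also given without HuR 2. Hepatocyte markers had the highest levels of the cell type lists, at a sum of 1584, 1644 and 1736 depth-scaled reads (RPM) with HuR and 562 to 1462 with IgG, while Kupffer cell markers summed to 18.4 to 33.2 and 6.83 to 38.3. In bulk samples, fewer cells of a type and less RNA per cell cannot be told apart.

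The level of the exons themselves gave no calls. Of 40378 exons, 0 (0.0%) passed an adjusted p of 0.05 in limma on log2(RPKM + 0.5), where the lowest adjusted p was 0.479, and 3342 (8.28%) were higher and 717 (1.78%) lower with HuR at an unadjusted p under 0.05. The median difference, HuR minus IgG, was 0.32 on the log2 scale and 69.8% of exons were above 0. Centring the libraries at their medians moved it to -0.02 and turned the unadjusted counts to 1660 higher and 2886 lower, so the direction of single exons rests on the scaling. Without IgG 2 the unadjusted counts were 824 higher and 986 lower, and without IgG 3 they were 999 higher and 1439 lower. Leaving out HuR 1, HuR 2 or HuR 3 gave 329, 400 and 292 lower. A ratio within a gene is free of a library's scale but for the pseudocount, and the rest of the results use it.

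For each exon, the rest of its gene was the mean level, weighted by length, over the gene's exons that do not overlap it. The measure was log2((exon + 0.5)/(rest + 0.5)) per library. It is exactly 0 where exon and rest both lack reads, and low levels draw it towards 0. The median level of the tested exons, 0.594 RPKM, was close to the pseudocount. The measure could be had for 31578 members of 6948 genes, of which 4925 were first, 13966 internal and 12562 last exons and 125 had no such class. The median gene had 3 such exons and the median exon had 7.72 reads per library, with 13745 exons at 10 or more reads on average. Alternative ends of one exon share reads: 20813 of these exons overlap another tested exon of their gene. In a gene with few exons, one exon high against the rest also makes the others low, so the counts in the 2 directions are not separate.

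No exon passed the threshold against the rest of its gene. The count was 0 of 31578 (0.0%), with a lowest adjusted p of 0.121 in limma. At an unadjusted p under 0.05, 2060 exons (6.52%) were higher with HuR and 2888 (9.15%) lower. The HuR and IgG ratios did not overlap for 3226 higher (10.2%) and 4146 lower exons (13.1%). Without IgG 2 the unadjusted lower count was 1822, and without HuR 3 and IgG 1 together the higher count was 1188. The other limma method for exons, diffSplice, which takes the spread over all exons of a gene at once, called 171 higher and 132 lower of 30368. It treats exons that share reads as separate.

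The calls were split by place in the gene. Of last exons, 1674 (13.3%) were higher and 117 (0.931%) lower by the same unadjusted p, against 6.52% and 9.15% over all tested exons. Of internal exons, 306 (2.19%) were higher and 1918 (13.7%) lower, and of first exons 74 (1.5%) and 845 (17.2%). The median ratio of first exons was -0.999, -0.83 and -0.98 in HuR 1, 2 and 3 and -0.47, -0.13 and 0 in IgG 1, 2 and 3. Internal exons were at -1.14, -0.81 and -0.83 with HuR and -0.38, -0.14 and -0.14 with IgG. In both classes all HuR libraries lay below all IgG libraries, with an exact permutation p of 0.1, the smallest that 3 against 3 libraries allow. Last exons were at 0.26, 0 and 0.51 with HuR and -0.11, -0.09 and 0 with IgG, where HuR 2 and IgG 3 tie (exact permutation p = 0.2). Over the 11 classes compared, the lowest adjusted p was 0.183.

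Exons that span an intron, or lie over a small RNA gene or another gene's exon, were also taken as classes. Exons that span an intron of their own gene, as in retained introns, had a median ratio of -0.51 ± 0.0154 (SD, n = 3) with HuR and -0.27 ± 0.269 (SD, n = 3) with IgG, and the groups overlapped. Exons over a small RNA gene were at -0.21 ± 0.0448 (SD, n = 3) and -0.08 ± 0.0902 (SD, n = 3) over 376 exons. Exons over an exon of another gene were at -0.14 ± 0.0911 (SD, n = 3) and -0.12 ± 0.129 (SD, n = 3). None of these 3 classes separated the groups, but they mix last exons with internal ones, which differed in opposite directions. Internal exons over a small RNA gene were at -0.01, -0.04 and -0.08 with HuR and 0.28, 0.17 and 0 with IgG. Internal exons that span an intron were at -0.82, -0.76 and -0.79 with HuR and -0.67, -0.27 and -0.05 with IgG. In both of these the groups did not overlap (exact permutation p = 0.1, the smallest possible). Over small RNA genes, however, HuR 1 at -0.008 and IgG 3 at 0 were nearly level, and a 0 can come from exons without reads. The median difference, HuR minus IgG, was -0.63 for internal exons over a small RNA gene. It was -0.28 for those that span an intron and -0.53 over all internal exons.

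Merging the overlapping exons of a gene into blocks gives 1 last block per gene and removes reads shared within the gene. Reads shared with another gene can remain. The 3509 last blocks without an exon of another gene over them had a median difference, HuR minus IgG, of 0.90. The last block was tested against the rest in 4304 genes with at least 2 blocks above 0 in 3 or more libraries. In the median gene its log2 ratio was 1.02, 0.51 and 1.23 with HuR. With IgG it was 0.18, 0 and 0, and the Input mean gave 0.015. The 3 HuR libraries were above the 3 IgG libraries (exact permutation p = 0.1, the smallest possible). The IgG medians were close to that of Input. Genes without reads in both parts give exactly 0, so the medians of IgG 2 and IgG 3 do not show even coverage. How many genes lacked reads in both parts was not counted. HuR 2 was the lowest of the HuR libraries. The median difference over genes was 0.85 and 3375 genes (78.4%) were above 0.

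Gene by gene, the test ended short of the threshold. In limma, 0 of 4304 last blocks (0.0%) passed, with a lowest adjusted p of 0.054. At an unadjusted p under 0.05, 942 (21.9%) were higher with HuR and 27 (0.627%) lower. Ratios did not overlap for 1150 higher (26.7%) and 88 lower genes (2.04%). Genes whose last block and rest were both at 0.5 RPKM or more in at least 3 libraries gave calls: 147 of 1375 (10.7%) rose at an adjusted p under 0.05 in limma, 0 fell, and the median difference was 1.54. A last block can meet this filter through the HuR libraries alone, and a rest through the IgG libraries alone, and both select for a rise. Of the 1375 genes, 95 met it by the first route, with 11 of the 147 calls, and 24 by the second, with 13 calls. The last block was at 0.5 RPKM or more in fewer than 3 IgG libraries in 942 genes, with 97 calls. It was so in all 3 IgG libraries in 433 genes, with 50 calls. Without HuR 2, 17 of 4304 passed and the median was 1.04. Without IgG 2 the unadjusted higher count was 609. The unadjusted lower count was 67 without HuR 3 and 16 without IgG 1.

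Counted as shares of reads, the contrast was wide. Among 1659 genes with at least 10 reads in each of the 6 libraries, the last block held a median of 75.4%, 57.7% and 79.5% of a gene's reads in HuR 1, 2 and 3. With IgG it held 45.8%, 37.0% and 29.4%. The Input mean gave 36.2%, and the last block made up 32.9% of the exon length. The means were 70.8% ± 11.6 (SD, n = 3) and 37.4% ± 8.202 (SD, n = 3), and the groups did not overlap (exact permutation p = 0.1, the smallest possible). The last block exceeded its share of the length in 78.8%, 69.0% and 88.2% of genes with HuR and in 62.7%, 53.2% and 48.5% with IgG. In the 722 genes with at least 50 reads the shares were 76.0%, 60.7% and 83.0% against 44.6%, 38.7% and 38.0%, a gap of 32.8 points beside 33.5 in the larger set. Pooled over all reads of the tested genes, which a few abundant genes dominate, last blocks held 86.3% ± 7.60 (SD, n = 3) with HuR and 88.9% ± 8.66 (SD, n = 3) with IgG and the groups overlapped (exact permutation p = 0.6).

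**Figure D1:**
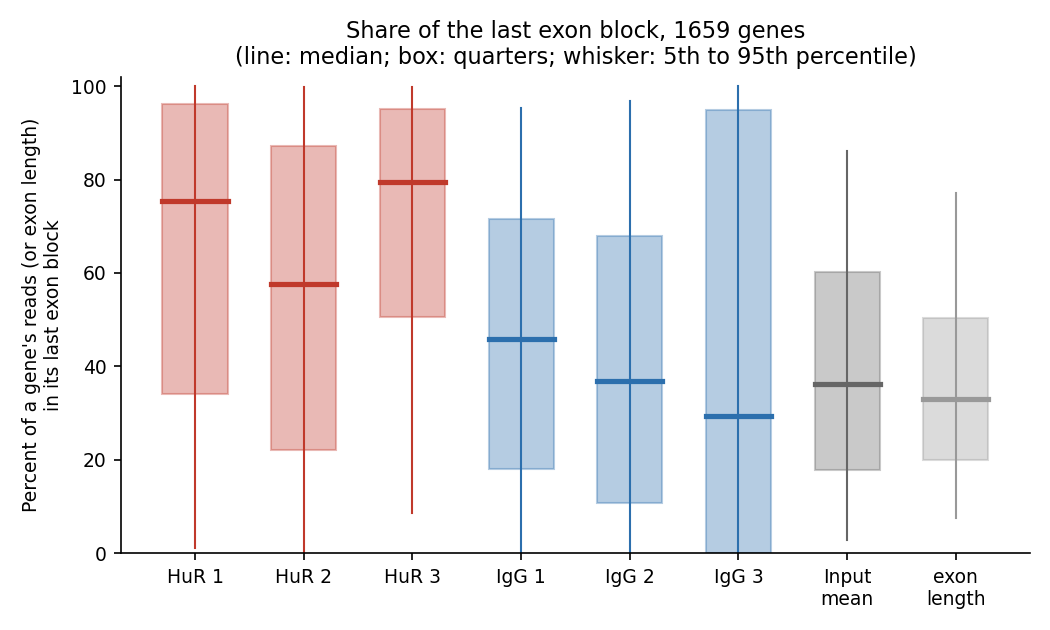
Percent of a gene's reads in its last exon block (vertical axis) for each pull-down library, the Input mean and, at the right, the percent of exon length, over 1659 genes with at least 10 reads in each pull-down. Lines are medians, boxes the interquartile range and whiskers the 5th to 95th percentile; the HuR medians of 57.7% to 79.5% lie above the IgG medians of 29.4% to 45.8%, whose spread within a library is wide.

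Both levels were looked at apart. In the same 1659 genes the median last block was at 4.52, 3.57 and 3.70 RPKM with HuR and 1.99, 0.457 and 0.413 with IgG. The median rest of the gene was at 0.824, 1.42 and 0.537 RPKM with HuR and 1.15, 0.388 and 0.402 with IgG, so the rests overlapped between the groups and the last blocks did not. Over all 4304 genes the median difference, HuR minus IgG, was 1.14 for the last block and 0.23 for the rest on the log2 scale. By group means, 1294 genes had a higher last block and a lower rest with HuR, and 250 the converse. Where both had to be without overlap, 54 genes had the first pattern and 1 the converse.

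Exon blocks next to the last were nearer to it. In genes of 6 or more blocks, the median ratio of the last block was 0.92 ± 0.356 (SD, n = 3) with HuR and 0.06 ± 0.109 (SD, n = 3) with IgG over 4321 blocks. For this profile and for the split by length, a gene needed no other block above 0 in 3 libraries, so more last blocks entered than the 4304. The block before the last was at -0.35 ± 0.129 (SD, n = 3) and -0.06 ± 0.056 (SD, n = 3). The blocks 2 and 3 before the last were at -0.82 ± 0.183 and -0.83 ± 0.229 (SD, n = 3) with HuR, and those further up at -0.83 ± 0.225 (SD, n = 3). The first block was at -0.72 ± 0.0838 (SD, n = 3) with HuR and -0.10 ± 0.112 (SD, n = 3) with IgG. At each position shown the groups did not overlap, with an exact permutation p of 0.1, the smallest possible.

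Since a high last block lowers the ratio of every other block, the rest was also taken without the last block. The HuR minus IgG difference was then 0.07 for the block before the last, -0.07 and -0.13 for the blocks 2 and 3 before it, -0.21 for blocks further up, -0.03 for the second block and -0.05 for the first. Every difference was smaller than with the last block in the rest, and that of the block before the last turned its sign. For the blocks 3 before the last and further up, the groups did not overlap.

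**Figure D2:**
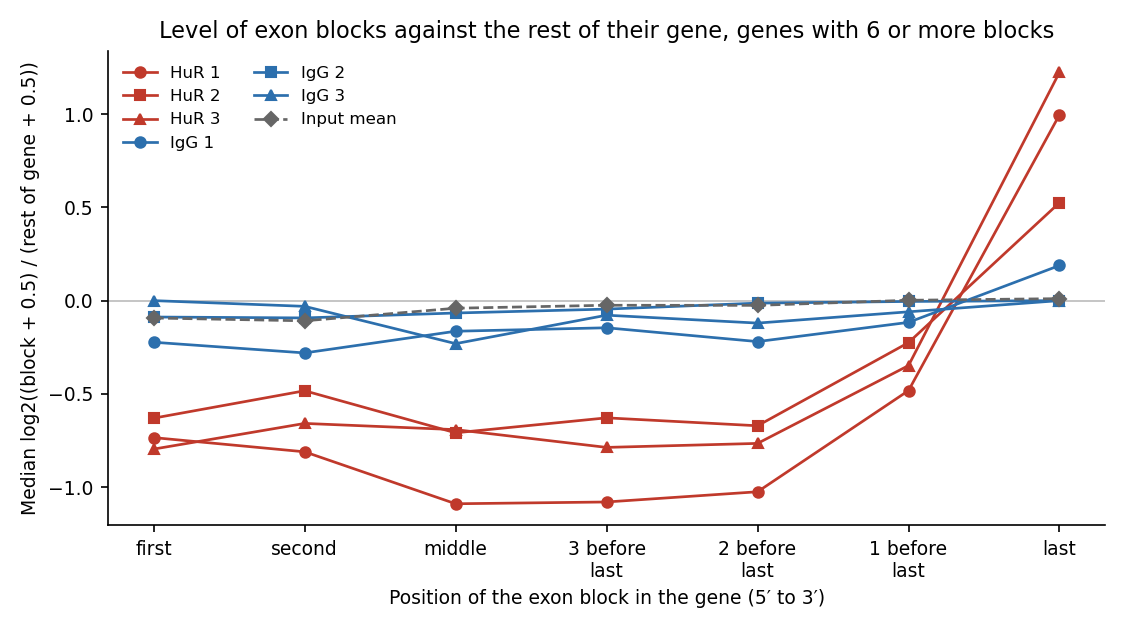
Median log2 ratio of an exon block to the rest of its gene (vertical axis) by position from 5′ to 3′ in genes of 6 or more blocks, 1 line per library. The HuR lines lie below the IgG lines at every position up to the block before the last and above them at the last block, where they reach 0.53 to 1.22.

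Short blocks departed furthest. In genes of 3 or more blocks, internal blocks under 150 b had a HuR minus IgG difference of -1.05 and those of 150 b to under 300 b -1.04, against -0.55 at 300 b to under 1000 b and -0.20 at 1000 b or more. At 1000 b or more the groups overlapped (exact permutation p = 0.2). Last blocks ran the other way at each length, with 2.40 over 60 blocks under 150 b, 1.57 over 241 of 150 b to under 300 b, 1.17 over 1355 of 300 b to under 1000 b and 0.72 over 3923 of 1000 b or more. So among blocks of like length the last and the internal ones differed in sign, and the difference was widest for short blocks. The rest here holds the last block, and a high last block by itself lowers the ratio of internal blocks. The split by length was not repeated with the last block left out of the rest. Short blocks hold few reads, and the part of depth in this was not tested.

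Some internal blocks are last exons of a shorter transcript. The annotation places the 3' end of a protein-coding transcript in 1432 of the internal blocks. At 1000 b or more, the 730 such blocks had median ratios of -0.07, -0.04 and -0.11 with HuR and -0.17, -0.05 and -0.01 with IgG, a difference of 0.00. The 554 long internal blocks without any transcript end were at -0.35, -0.18 and -0.26 with HuR and -0.24, -0.07 and -0.02 with IgG, a difference of -0.16. The 1281 that hold only the end of other transcripts, such as retained introns, were at -0.59, -0.51 and -0.54 against -0.42, -0.18 and -0.02, a difference of -0.34. Among the 730, 28 higher and 28 lower differences had an unadjusted p under 0.05 (3.84% each), against 10 (1.81%) and 38 (6.86%) of the 554. Under 300 b the same split made little difference, at -1.09 with and -1.04 without a transcript end. These annotation classes were added after the values had been seen, and here too the rest of the gene held the last block.

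Some long internal blocks had a higher ratio in all 3 HuR libraries than in any IgG library and a HuR mean of 5 RPKM or more. The 10 of them with the smallest p were looked up, a choice also made after seeing values. Of these, Sdcbp, Stard5, Trak1, Rdh16, Slc33a1 and Ddx17 hold the end of a protein-coding transcript, 6 of 10. Among all 2565 long internal blocks 730 do (28.5%), but those were not held to that level, so the shares are not of like sets. Block 7 of 8 of Sdcbp, the gene of the adaptor syntenin, was at 7.06, 5.86 and 4.31 RPKM with HuR and 0.0711, 0.0211 and 0 with IgG (difference in ratio 3.34, adjusted p = 0.149 in limma). It lies over an exon of Nsmaf, so its reads are uncertain. Block 7 of 8 of Stard5, a sterol transfer protein, was at 8.71, 7.41 and 7.29 against 4.33, 0.787 and 0 (3.31, adjusted p = 0.158 in limma). Both were far above the rest of their gene, which was at 0.191 RPKM or below with HuR. In Rdh16, a retinol dehydrogenase, block 4 of 5 was at 9.54, 16.7 and 4.95 RPKM with HuR and 1.97, 0.278 and 0.143 with IgG. Trak1, Slc33a1 and Ddx17 had differences of 2.94, 2.96 and 1.40. None of the 10 passed the threshold.

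Last blocks were also read by the kind of RNA. Those of 4134 protein-coding genes had a median difference of 0.88, and 928 of them (22.4%) were higher at an unadjusted p under 0.05. In 109 lincRNA and antisense genes the median was 0.03, with 6 higher and 6 lower, and in 28 pseudogenes it was -0.01. Their last blocks were at -0.07, -0.25 and 0 with HuR in the lincRNA and antisense genes, inside the IgG range or below it. Antisense genes share reads with their partner where counting is not by strand, which is not given in the sources used here. Among protein-coding genes, last exons without any coding sequence had a median of 0.89 over 198 genes. Those with coding sequence were at 0.89 where the 3' UTR made up 0.5 or more of the exon and at 0.73 over 357 genes where it made up less. The 56 last blocks over a small RNA gene had a median of 0.09.

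Last exons were then grouped by their letters. Among 2581 last exons of 500 b to under 3000 b with a sequence, the median difference in 4 equal sets ordered by U content was 0.81, 0.93, 0.94 and 0.96 from the least to the most U. Last exons with the motif UUUUUUU, searched on the transcript's strand and found in 45.8%, had a median of 0.89 and those without it 0.94. For AUUUA, found in 74.1%, the medians were 0.89 and 0.95. Exons with either motif were longer, at medians of 1798 b against 1145 b and 1610 b against 932 b, and longer last blocks had smaller differences.

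Internal exons gave another contrast. Of 7637 internal exons of 60 to 300 b, the 170 that were higher with HuR at an unadjusted p under 0.05 had a median A content of 29.7%, against 25.6% for all and 25% for the 1362 that were lower. AUUUA was present in 15.3% of the 170, in 5.50% of all and in 6.24% of the lower ones, while UUUUUUU was present in 0%, 0.851% and 0.661%. A run of 8 A was present in 4.71%, 0.471% and 0% of them. U content was 19.8%, 20.8% and 21.8%. These are descriptions of sets chosen by the ratio, with no test.

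Libraries of a group shared their exon pattern only in part. Over 4802 blocks of 769 genes with at least 50 reads in each library, the block ratios of HuR libraries had Pearson r of 0.540, 0.669 and 0.577 with each other. IgG libraries had 0.592, 0.433 and 0.399, and HuR with IgG 0.333 to 0.449. With the Input mean r was 0.284 to 0.352 for HuR and 0.573, 0.621 and 0.407 for IgG. The points are blocks that share genes and libraries, so no p is given. In 344 genes with at least 100 reads in each library and 6 or more blocks, 64.0%, 56.6% and 55.6% of blocks other than the last were at 0 with HuR. The share was 38.3%, 48.0% and 71.9% with IgG and 16.6% in the Input mean. Blocks other than the last were thus at 0 most often in IgG 3 and least often in IgG 1, while last blocks were at 0 in 2.03% to 4.07% with HuR and 4.07% to 18.6% with IgG.

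Since no exon passed, those named are the 10 with the smallest p in each direction above a set level. The 10 higher ones were 8 last and 2 internal exons, and the 10 lower ones were 9 internal exons and 1 first exon. The smallest p was that of a lower exon, in Ces2a. Gjb2, which encodes connexin 26 of gap junctions and has 2 blocks, was named in both directions. Its last exon (chr14:57098600-57100771, coding sequence and 3' UTR) was at 58.4, 52.1 and 40.3 RPKM with HuR and 10.6, 2.30 and 6.88 with IgG. Its first exon (chr14:57104469-57104702, 5' UTR) was at 0, 0.487 and 0 with HuR and 11.1, 3.53 and 9.04 with IgG. So the 2 exons of the gene were level in IgG and Input, and only the last one was recovered in quantity with HuR. The difference in ratio was 6.64 ± 0.67 (SE), with an adjusted p of 0.121 in limma for both exons, which mirror each other. Its size depends on the pseudocount, as the first exon held 0, 3 and 0 reads with HuR. The window printed above with its run of 11 U lies in the last exon.

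Sdhd encodes the membrane anchor subunit D of succinate dehydrogenase. Its last exon (chr9:50596357-50597250, mostly 3' UTR) was at 21.98, 10.1 and 15.9 RPKM with HuR and 2.40, 0.504 and 0.039 with IgG, while the rest was at 0 in all 3 HuR libraries and at 3.74, 1.67 and 1.24 with IgG. The difference was 6.09 ± 0.70 (SE; adjusted p = 0.126 in limma). Because the rest was at 0, its size depends on the pseudocount.

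Arg1, the arginase of the urea cycle, had a last exon (chr10:24915221-24915779) at 93.5, 72.1 and 75.02 RPKM with HuR and 3.61, 1.85 and 4.59 with IgG. The rest of Arg1 was at 12.3, 9.07 and 10.3 with HuR and 14.1, 6.02 and 6.46 with IgG and overlapped between groups. The last exon alone thus made the difference of 4.12 ± 0.63 (SE; adjusted p = 0.161 in limma). Ceacam1, a cell adhesion molecule, was at 64.8, 60.9 and 34.6 RPKM in its last exon of 208 b with HuR and 1.07, 1.62 and 0 with IgG. Last exons of C1rl, a complement C1r-like protease, Plpp3, a lipid phosphatase, and Upf1, the helicase of nonsense-mediated decay, had differences of 4.46, 4.21 and 4.09. With HuR the rest was at 0 in all 3 libraries for C1rl and at 0.294 RPKM or below for Plpp3 and Upf1. The sizes of these differences therefore depend on the pseudocount. Upf1's last exon overlaps exons of Cers1 and Gdf1, so its reads are uncertain. AL589670.1, whose exon is only 29 b and whose gene is not in the annotation, was at 22.03, 34.1 and 21.8 RPKM with HuR and 0 with IgG, at least 5.56-fold higher by a floor of 3 reads per library.

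Internal exons among the higher ones were few. Block 2 of 19 of Trf, the gene of transferrin, is an internal exon of 114 b (chr9:103228329-103228442, partly coding). It was at 24.1, 64.6 and 15.97 RPKM with HuR and at 0 in all IgG libraries and the Input mean, at least 29.4-fold higher by a floor of 3 reads per library. The rest of Trf was at 111, 165 and 66.4 RPKM with HuR and 256, 80.6 and 139 with IgG. The bound is 16.9 without HuR 2. So this exon was seen only with HuR, while 6 of the 19 blocks were lower in every HuR library than in any IgG library and the other 12 overlapped or were at 0. The last listed block of Trf was at 0 in all 6 libraries, which shows that the last exon of the annotation is not always the one in use. Block 5 of 12 of Ces3b, a carboxylesterase, was at 13.2, 9.04 and 12.03 RPKM with HuR and 0.601, 0 and 0 with IgG, and at 5.21 in the Input mean. Ces genes are near copies of each other, so this value is uncertain.

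The exons lower with HuR were short coding exons, other than the first exon of Gjb2. Block 3 of 12 of F2, the gene of prothrombin (106 b, chr2:91633191-91633296), was at 0 in all HuR libraries and at 24.99, 21.9 and 31.1 RPKM with IgG, at least 24.5-fold lower by a floor of 3 reads per library. The Input mean was 28.2. In the same gene the last exon (chr2:91625320-91625573) was at 41.3, 32.0 and 44.2 RPKM with HuR and 4.47, 2.07 and 0 with IgG, a difference of 5.64. Block 3 was thus above the last exon in every IgG library and below it in every HuR library. Block 3 of 4 of Ssr3, a subunit of the translocon-associated complex, was at 0, 0 and 0.751 RPKM with HuR and 15.9, 6.06 and 5.96 with IgG (difference -6.67, adjusted p = 0.121 in limma). Its rest was higher with HuR, at 12.9, 6.98 and 17.9 against 4.80, 0.663 and 0.136.

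Other lower exons had the same form. Block 4 of 8 of Hsd11b1, the reductase that regenerates active glucocorticoid, was at 0 in all HuR libraries and 24.8, 6.03 and 1.55 RPKM with IgG, at least 10.7-fold lower. That bound is 3.76 without IgG 1. Block 2 of 4 of Hsd3b7, an enzyme of bile acid synthesis, was at 0 against 11.7, 2.54 and 7.79, at least 11.2-fold lower. It overlaps exons of 9430064I24Rik and AC149222.1, so its reads are uncertain. Block 5 of 6 of C1rl was at 0 against 32.8, 4.002 and 0.463, where the bound of 8.26-fold lower rests on IgG 1 and is 1.49 without it. Block 2 of 10 of Marc2, a mitochondrial amidoxime reductase, was at 0.864, 0 and 0.214 against 11.2, 3.67 and 8.57, while its rest was at 9.94, 6.85 and 10.6 against 2.37, 0.412 and 0.708. In Marc2, Hsd11b1, Hsd3b7 and C1rl the exon was below IgG and the rest of the gene above IgG, in each case without overlap. Block 12 of 21 of Cp, ceruloplasmin, had a difference of -4.11. Block 2 of 11 of Ces2a, at least 46.3-fold lower (30.2 without IgG 3), and block 28 of 35 of Mug2 belong to families of near copies and are uncertain.

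The liver's most abundant mRNA showed the pattern at its largest reads. The last block of Alb, albumin (143 b, chr5:90476460-90476602, all 3' UTR), was at 5341, 1313 and 6057 RPKM with HuR and 75.4, 17.8 and 236 with IgG. Its rest of 15 blocks was at 111, 386 and 78.5 with HuR and 305, 142 and 352 with IgG. The last block thus held 75.8%, 18.1% and 83.4% of Alb reads with HuR and 1.58%, 0.809% and 4.17% with IgG, against 3.15% in the Input mean and 6.11% of the length. The difference was 6.39 ± 1.26 (SE; adjusted p = 0.078 in limma). HuR 2 stood between the other HuR libraries and IgG, with a lower last block and a higher rest.

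Gc and Pzp, also secreted, had a similar form. Gc, the vitamin D-binding protein, had a last block (167 b, all 3' UTR) at 797, 234 and 732 RPKM with HuR and 22.3, 13.3 and 6.44 with IgG, and a rest at 23.7, 64.2 and 14.01 against 60.1, 22.7 and 39.1. Pzp, a protease inhibitor of the macroglobulin family, had a last block at 263, 210 and 267 against 26.4, 2.34 and 10.6. In both genes the last block was higher and did not overlap, while the rest did. Of 39 plasma protein and apolipoprotein genes tested, 37 had a difference above 0, 20 (51.3%) had an unadjusted p under 0.05 and were higher, 0 lower, and the median was 2.37. Over all genes 78.4% were above 0, 21.9% were higher and the median was 0.85. Neither this list nor those below were matched to all genes by level. Among the 1375 genes at 0.5 RPKM or more, a filter that can select for a rise, the median was 1.54. Of those, 448 were higher at an unadjusted p under 0.05. The part of level in the differences between lists was not tested. The 2 below 0 were Apoe at -0.75 and Apoc4 at -0.52, and Kng1 was at 0.43.

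Apob, the large apolipoprotein of very low density lipoprotein, had one of the smaller differences in that list. Its last block (chr12:8015015-8016835) was at 85.9, 72.5 and 82.0 RPKM with HuR and 32.1, 11.8 and 9.11 with IgG. Its rest was higher too, at 50.1, 41.7 and 35.1 against 27.3, 7.66 and 8.15, so the difference in ratio was 0.60 ± 0.54 (SE; adjusted p = 0.566 in limma). Within the rest, block 26, an internal coding exon of 7467 b (chr12:8005736-8013202), was at 73.6, 57.4 and 51.1 RPKM with HuR and 27.0, 7.35 and 5.18 with IgG, near the level of the last block. Of the 25 blocks before it, 18 had a lower mean with HuR than with IgG, and 1 was higher with HuR without overlap. In Apob the HuR and IgG levels were thus apart at block 26 as well as at the last block.

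**Figure D3:**
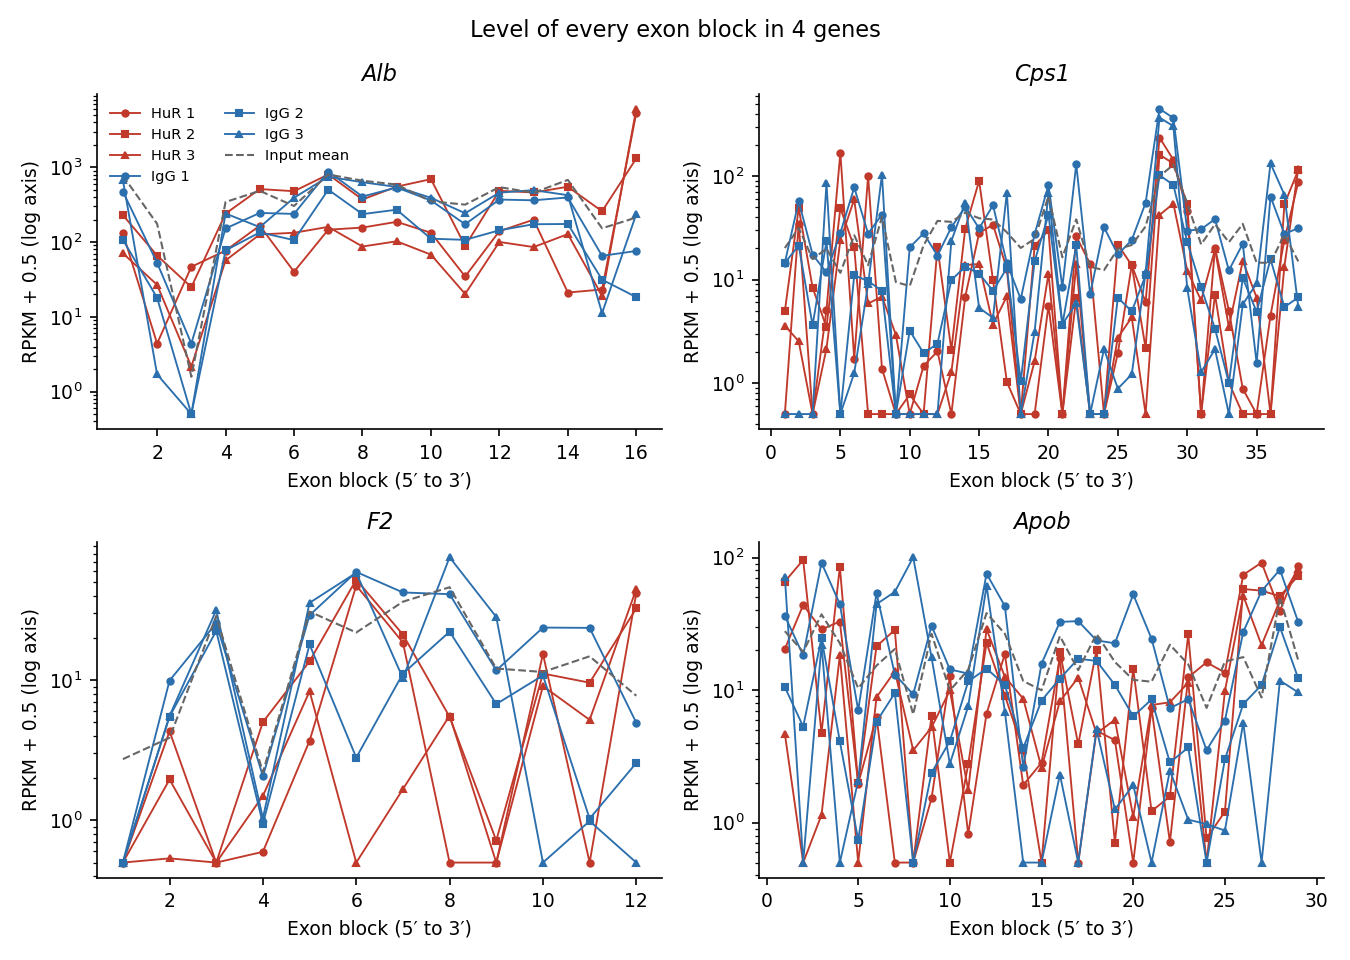
RPKM plus 0.5 (log axis) of every exon block from 5′ to 3′ in Alb, Cps1, F2 and Apob, 1 line per library, with the Input mean dashed. HuR and IgG lines cross over most of the gene in Alb, Cps1 and Apob, while in F2 the HuR lines lie below the IgG lines at several earlier blocks. They part at the last block in Alb, Cps1 and F2, with HuR higher, where Alb reaches 5341, 1313 and 6057 RPKM with HuR, and at block 26 and the last block in Apob.

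An enzyme of liver metabolism had a difference of the same order. Cps1, carbamoyl phosphate synthetase of the urea cycle, has 38 blocks. Its last block was at 86.6, 114 and 118 RPKM with HuR and 30.8, 6.23 and 4.97 with IgG, while the rest was at 18.7, 19.6 and 8.15 against 45.3, 12.7 and 30.4 (difference 4.16 ± 0.77 SE, adjusted p = 0.078 in limma). All HuR levels of its last block were above all IgG levels, and the levels of the rest overlapped. The last block held 50.8%, 56.4% and 76.3% of its reads with HuR and 13.2%, 9.87% and 3.51% with IgG.

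In fatty acid oxidation, 17 of 18 genes tested had a difference above 0 and 12 (66.7%) were higher at an unadjusted p under 0.05, with a median of 3.07. Over all genes 78.4% were above 0 and 21.9% higher, with a median of 0.85. Cpt1a, which carries fatty acyl groups into mitochondria, had a last block at 11.3, 25.7 and 17.0 RPKM with HuR and 1.88, 1.63 and 0.246 with IgG. Acaa1b, a peroxisomal thiolase, was at 90.0, 48.3 and 40.1 against 9.27, 3.45 and 1.95. Hadha and Hadhb, the subunits of the trifunctional protein, were at differences of 0.09 and -0.69 and stood outside the pattern of the list. Acadl, Acadm and Acads, the acyl-CoA dehydrogenases, had 3.99, 3.73 and 4.44.

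Of 23 cytochrome P450 genes, 22 were above 0 (all genes 78.4%) and 13 (56.5%, all genes 21.9%) higher at an unadjusted p under 0.05, with a median of 2.54. Cyp3a11, a drug-metabolising P450, had a last block at 553, 179 and 630 RPKM with HuR and 38.4, 7.64 and 13.9 with IgG, and a rest that overlapped at 6.48, 5.55 and 4.67 against 8.70, 3.47 and 3.50. Cyp2a12 was at 57.8, 54.5 and 42.1 against 10.4, 0.824 and 2.74. P450 genes of a family are close copies, so reads may be split among them. Cyp2e1 and Cyp3a13 had differences of 0.86 and 0.09.

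Of 29 genes of the respiratory chain and ATP synthase, 28 were above 0 (all genes 78.4%) and 13 (44.8%, all genes 21.9%) higher at an unadjusted p under 0.05, with a median of 2.02. Sdha, the flavoprotein of succinate dehydrogenase, had a last block at 7.15, 14.04 and 11.03 RPKM with HuR and 0.343, 0.407 and 0 with IgG. Cox7a2 was the one below 0, at -1.67. Of 21 major urinary protein genes, 20 were above 0 and 14 (66.7%) higher by the same measure, with a median of 3.06. The windows of Mup1, Mup13 and Mup15 are the same 30 letters, aUUUUUcaUgaaUUUcUUccUcUUccUgUU, printed to show that these genes are near copies whose reads cannot be told apart. Their summed RPM values were 7190, 426 and 13786 with HuR and 822, 279 and 346 with IgG, so HuR 2 was not above IgG 1.

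**Figure D4:**
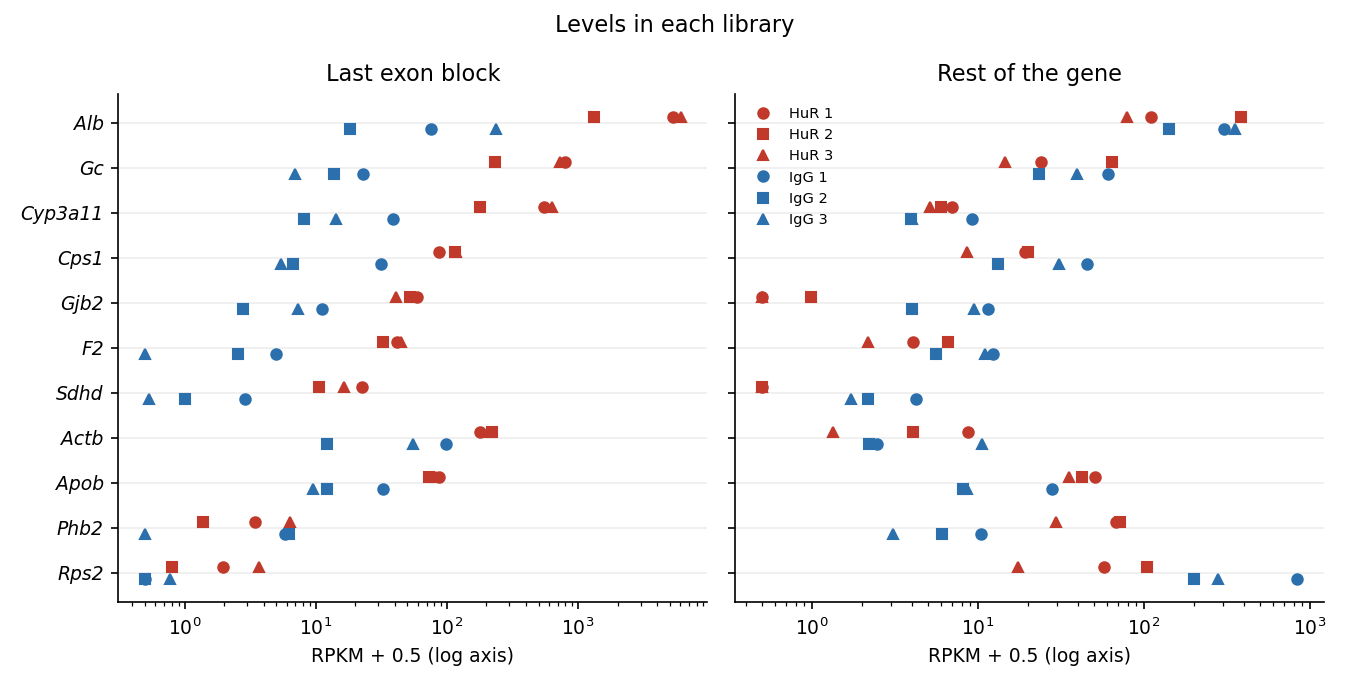
RPKM plus 0.5 (log axis) of the last exon block (left) and of the rest of the gene (right) in each library for 11 named genes. HuR and IgG points part on the left for all but Phb2, though only barely for Rps2. On the right the points overlap for Alb, Gc, Cyp3a11, Cps1, F2 and Actb.

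Genes listed for their link to HuR did not stand above the background. Of 13 published HuR targets tested, 10 (76.9%) were above 0 and 3 (23.1%) higher at an unadjusted p under 0.05, with a median of 0.77. Over all genes, not matched by level, the values were 78.4%, 21.9% and 0.85. Mcl1, a survival protein of the BCL2 family, had a last block at 14.4, 12.7 and 4.93 RPKM with HuR and 2.27, 0.456 and 0 with IgG, a difference of 2.85 ± 0.91 (SE; adjusted p = 0.137 in limma). Actb was at 180, 219 and 210 RPKM against 97.7, 11.8 and 54.3, and its ratios overlapped between groups. Atg5 and Prkce had differences of 2.30 and 1.38, and Vegfa, Sirt1 and Mdm2 of -0.41, -0.34 and -0.15. Of 11 genes whose proteins bind AU-rich elements or 3' UTRs, all 11 were above 0, 0 were higher at an unadjusted p under 0.05 (all genes 21.9%) and the median was 0.70. Elavl1 itself could not be tested, with 2 member exons, nor Malat1, which is 1 block.

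Cnbp, Ttpa and Rida were named whatever their values. Cnbp, a nucleic acid-binding zinc finger protein, was at 22.3, 27.3 and 26.03 RPKM in its last block with HuR and 2.82, 0.705 and 0 with IgG (difference 4.35 ± 0.87 SE, adjusted p = 0.078 in limma). Ttpa, the tocopherol transfer protein, was at 14.8, 13.3 and 13.1 against 2.17, 0.394 and 0.029. Rida, a deaminase of reactive enamines and imines, was at 21.9, 21.8 and 25.5 against 1.23, 0.437 and 0.104, but its rest was at 13.7 in HuR 1 and 0.143 and 0.697 in HuR 2 and 3, and its ratios overlapped. In all 3 genes the HuR levels of the last block were close to each other and above every IgG level. Rab7, a late endosome GTPase, and Cpox of haem synthesis had last blocks at 15.8 to 21.7 and 11.3 to 19.0 RPKM with HuR and 2.70 or below and 1.54 or below with IgG. Palmd was at 9.19, 5.66 and 6.82 with HuR and at 0 in all IgG libraries, at least 20.1-fold higher by a floor of 3 reads per library.

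Splicing factor and ribosomal protein mRNAs held members on both sides of 0. Of 26 splicing factor genes, 19 (73.1%) were above 0 and 4 (15.4%) higher at an unadjusted p under 0.05, with a median of 0.36, against 78.4%, 21.9% and 0.85 over all genes. Srsf6 was at 4.59, 5.19 and 2.25 RPKM with HuR and 0.978, 0.055 and 0 with IgG, a difference of 2.76. Of 52 cytosolic ribosomal protein genes, 42 (80.8%) were above 0, 17 (32.7%) had an unadjusted p under 0.05 and were higher, 1 lower, with a median of 1.62 and a range from -2.69 to 5.89. Rpl4 was at 23.8, 19.7 and 33.2 RPKM in its last block with HuR and 8.66, 1.10 and 15.4 with IgG. The last exons of these genes are short and their pseudogenes many, so reads may be split.

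Rps2 shows how a ratio can rest in large part on the rest of the gene. Its last block of 127 b was at 1.48, 0.299 and 3.22 RPKM with HuR and 0, 0 and 0.273 with IgG, that is 5, 1 and 11 reads against 0, 0 and 1. Its rest was at 57.1, 104 and 17.1 RPKM with HuR and 841, 200 and 278 with IgG. Of the difference in ratio of 4.57, 2.93 came from the rest and 1.64 from the last block, and its size depends on the pseudocount.

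Phb2, the mitochondrial scaffold protein prohibitin 2, had a mean difference below 0. Its last block (345 b, chr6:124716606-124716950) was at 2.94, 0.882 and 5.82 RPKM with HuR and 5.30, 5.76 and 0 with IgG, while the rest was at 67.8, 71.6 and 29.3 against 9.89, 5.61 and 2.59. The last block held 0.456%, 0.13% and 2.06% of its reads with HuR. The share was 5.36% in IgG 1, 9.79% in IgG 2 and 13.0% for Input. IgG 3 had 0 of 244 reads there, which allows a share of up to 1.23%, so the groups were not apart. The difference was -2.94 ± 1.22 (SE; adjusted p = 0.207 in limma), and the ratios overlapped. Of the 27 lower last blocks, 2 met the level set for naming. Tlcd1, at -2.35, lies over the small nucleolar RNA genes Snord42a and Snord4a and over Rpl23a, and Hfe2, hemojuvelin, at -2.38, ranged from 0.960 to 8.12 RPKM with HuR and 1.18 to 12.2 with IgG.

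Markers of other cell types were thin. Last blocks could be tested for 4 Kupffer cell, 3 sinusoidal endothelial, 3 stellate cell, 2 blood and 0 cholangiocyte markers, with medians of 0.52, 0.73, 2.07 and 3.05 where there were any. Of these 12, 10 were above 0 and 2 higher at an unadjusted p under 0.05 (all genes 21.9%), which were Col1a1 of stellate cells and Hbb-bs of red cells. The 6 hepatocyte markers were all above 0, 4 of them at an unadjusted p under 0.05, with a median of 3.52. Noncoding hosts of small nucleolar RNAs had a median of -0.12 over 3 genes.

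**Figure D5:**
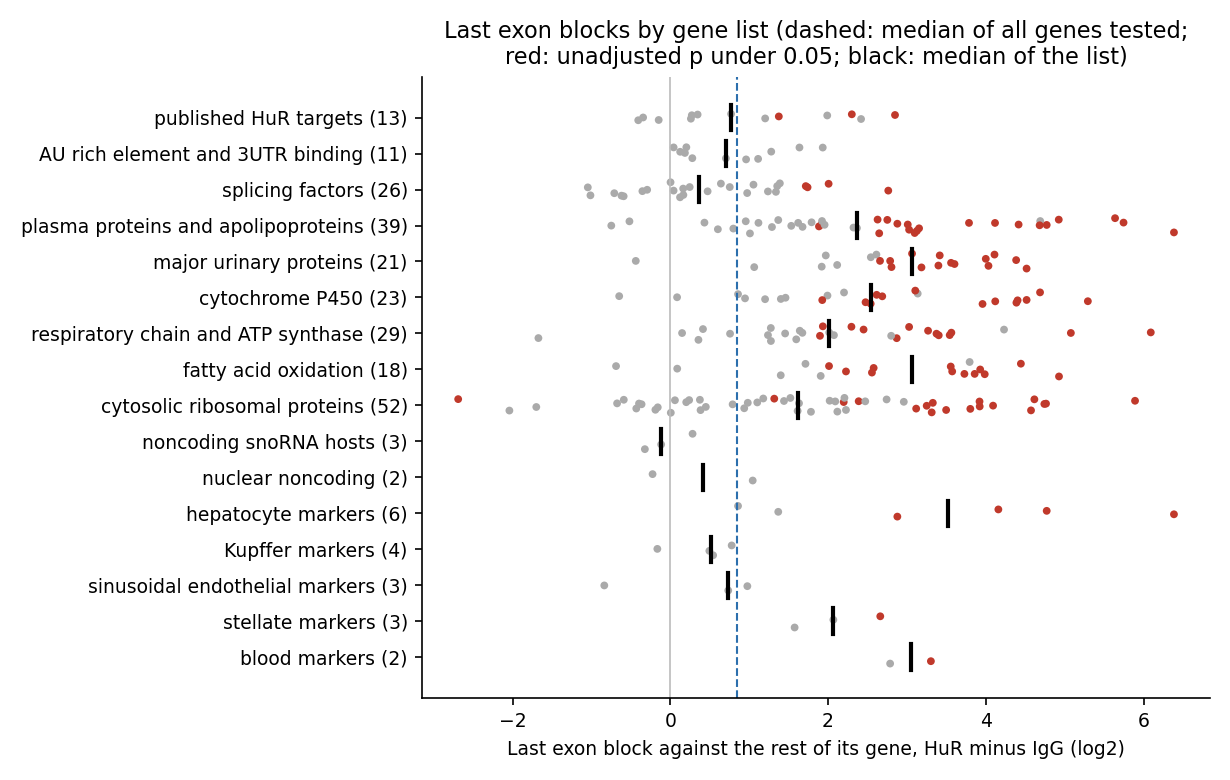
Difference of the last exon block against the rest of its gene, HuR minus IgG on the log2 scale (horizontal axis), 1 point per gene, by gene list with the number tested. Black bars are list medians and the dashed line the median of all genes, 0.85, which are not matched to the lists by level. Lists of liver enzymes and secreted proteins lie to its right, and published HuR targets at 0.77 beside it.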

How the data were processed

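The submitters' processing notes name Bowtie2, featureCounts and mm10. Not given in the sources used here are versions, strand setting and multi-mapping rules. The exon table as deposited holds RPKM per pull-down library and the Input mean, computed by the authors, besides log2 fold columns of RPKM plus 1 over Input plus 1, a p-value and a q-value by a test that nothing used here names. The lowest q-value in the authors' deposited table is 0.110. Values from 1 upward lacked decimal marks in the deposited table. The marks were put back and checked on the authors' fold columns. The fold columns are numbered in file order, which would exchange HuR 2 and HuR 3; the names of the RPKM columns were followed.

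Reads over several listed lines were split by the authors, as the values show, so lines of the same exon were summed. Overlapping exons of a gene were merged into blocks, of which 91.5% to 92.7% held whole reads within 0.05. Exons were tested at log2 with a pseudocount of 0.5 RPKM in limma 3.58.1 under R 4.3.3 (trend, robust, two-sided), Benjamini-Hochberg adjusted over all exons or genes tested, with a threshold of 0.05. Medians per library were compared by exact permutation tests, two-sided. As values are RPKM with split reads, no count model was used. Exon position, coding sequence and small RNA genes came from GENCODE M21, which held 98.1% of listed exons. The rest was done in Python 3.11.15 (scipy 1.17.1, pandas 2.3.3, numpy 2.4.6), plots in matplotlib 3.10.9, and the scripts were tested on simulated data.

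Exons named were to be the 10 largest differences per direction past the threshold, without overlap and at 5 RPKM or more in the higher group, 1 per gene, leaving out Gm-number, Rik and ps-suffix names and small structural RNAs, filled by smallest unadjusted p where too few passed. Last blocks were ranked the same way. Last blocks of Alb, Apob, Actb, Malat1, Elavl1, Mcl1, Rida, Ttpa, Cnbp, Phb2 and Rps2 were named whatever their values, and up to 3 genes per list by smallest p. A gene that the rule names is not reported here. Other list members were named to show the spread, after their values were seen. The members, lists and tests were chosen with earlier results of these data known. Alternatives covered pseudocount, filter, scaling, moderation, merging, a replicate block and leaving out each library.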

Additional observations from a re-analysis of the deposited data

How the results depend on the processing

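The median last-block difference was above 0 under every alternative run, and 0 last blocks passed lower under any of them. Its higher calls at an adjusted p under 0.05 in limma went from 0 to 147 with the stricter filter (0.5 RPKM), 21 without trend and up to 17 when a library was left out (range 0 to 17). Its unadjusted counts were 448 and 8 with the stricter filter, 1574 and 116 without a filter, 529 higher without HuR 3 and IgG 1, and 609 to 1187 higher and 16 to 67 lower when each library was left out. The median was 1.37 at a pseudocount of 0.1, 1.54 with the stricter filter, 0.35 without a filter, and 0.71 to 1.04 with each library left out.

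Exons against the rest of their gene gave 171 and 132 calls only in diffSplice, with 1337 unadjusted lower. Unadjusted counts were 743 and 1030 with the stricter filter, 12643 lower without a filter, 1317 and 1517 for merged blocks, 1045 lower at 10 reads or more, 1188 higher without HuR 3 and IgG 1, and 1424 to 2663 higher and 1822 to 3057 lower with each library left out. The median was -0.27 with the stricter filter, -0.29 without a filter and 0.23 at 10 reads or more, so its sign rests on the filter. The 10-read setting, the last block left out of the rest and the exchanged libraries were chosen after seeing the data.

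Exon levels gave 11 higher and 4 lower calls without trend. Their unadjusted counts were 1082 and 322 without a filter, 5244 higher without trend, 1660 and 2886 with centred libraries, 298 lower without HuR 3 and IgG 1, and 824 to 4474 higher and 292 to 1439 lower with each library left out. The median was 0.71 at a pseudocount of 0.1, 0.84 with the stricter filter, 0.04 without a filter and -0.0202 when centred.

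The replicate block changed no call. Same-numbered HuR and IgG libraries deviated together by r = 0.012, 0.015 and 0.024 over exon levels and 0.007, 0.041 and 0.030 over ratios. These small values show no pairing by number, but with 3 sparse libraries per group they cannot exclude it. Not every HuR library correlated best with its own number (HuR 2 did not over levels, nor HuR 1 over ratios). With the block, unadjusted higher counts were 2118 for levels (2142 with HuR 2 and 3 exchanged), 1786 for ratios and 871 for last blocks.

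Some small values turned sign. Exons spanning an intron were at 0.0816 with the stricter filter, exons over another gene at -0.095 to 0.0327 with each library left out, and the block before the last at 0.0658 with the last block out of the rest. Of 856 values over 63 named last blocks, 12 turned sign. C1qa ranged from -1.065 to 2.05, Cd5l from -0.52 to 2.27 (-0.90 without HuR 3 and IgG 1), Clec4f from -0.28 to 1.12, Meg3 from -0.51 to 0.016 and Snhg17 from -0.095 to 0.52. Snhg4 ranged from -0.73 to 0.76, with 0.29 at a pseudocount of 0.1 and 1.10 without HuR 3 and IgG 1. The cause was not tested, except that filters alter which exons are tested. None of 368 values over the 20 named exons turned sign. Exons with a handful of reads limit what depth can show.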
